A study of Sus scrofa with 12 samples.

Results

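Genes with a passing peak or dip at Stage 2, the middle of 3 untreated stages, were taken from a culture series of porcine aortic valve interstitial cells (pAVICs), the fibroblast-like cells that live inside the valve leaflet. A gene was a member when its 3 Stage 2 values, on the log2(RPKM + 1) scale, lay all above or all below the 6 values of the flanking stages. RPKM, the authors' unit, scales reads by gene length and library size. Of 22861 genes in the table, 3008 were members: 775 above (3.39% of all genes) and 2233 below (9.77%). The cells were cultured on glass, which the labels name as the stimulus for calcification, and 3 biological replicates were sequenced per group. Stage 1 was collected at day 5 and Stage 2 at day 8, and neither is labelled with an added agent. The labels do not state on which day Stage 3 was collected. The later flank, Stage 3+DMSO, received DMSO at Stage 3, so the effects of stage and of DMSO on that side cannot be told apart. A separate group, Stage 3+KPT, received KPT, an agent that the labels name by this code alone, and it took no part in choosing members. Whether replicates are separate animals or cultures is unstated, and the p-values therefore cover only the spread between samples, which may be technical.

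Interstitial cells build and repair the leaflet's collagen, proteoglycans and elastic fibres, and in culture on stiff surfaces they turn into contractile, matrix-making cells that can gather into nodules and calcify. A dividing cell needs DNA replication, mitosis and new ribosomes, and it needs amino acids charged onto transfer RNAs. When amino acids run short, the integrated stress response raises the transcription factor ATF4, whose targets make serine, asparagine and cysteine and load transfer RNAs. IGF1 and HGF are secreted growth factors of connective tissue cells, and IGFBP proteins bind IGF1 outside the cell.

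Library totals recovered from the RPKM values ran from 13188023 to 20953807 in the 9 libraries of the 3 stages. All 12 members of a valve interstitial marker list were detected, with summed levels of 39270 to 39594 RPKM at Stage 1, 40822 to 42060 at Stage 2 and 34886 to 39377 in Stage 3+DMSO. Endothelial markers (9 found) summed to 63.6 to 69.9 RPKM at Stage 2 against 63.4 to 67.6 and 68.3 to 85.9 in the flanks. Leukocyte markers (10 found) summed to 280 to 307 RPKM at Stage 2, with PTPRC, CD163 and ITGAM at 0 there, against 247 to 286 and 237 to 279. Only 3 of the 10 reached an RPKM of 1 in at least 3 libraries, so the sum rests mainly on those. Cardiomyocyte markers (9 found, TNNT2 and NPPA at 0 at Stage 2) summed to at most 4.40 RPKM and epithelial markers (6 found, KRT5 at 0) to at most 0.460 in any untreated library. In bulk RNA, fewer cells of a type and less RNA per cell cannot be told apart. Stage 2 replicate 1 and Stage 3+DMSO replicate 1 lay furthest from their groups, with median absolute deviations of 0.107 and 0.0989 on the log2 scale, against 0.0583 to 0.0892 in the other 7.

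To test for peaks and dips, limma was fitted to all 13046 genes with an RPKM of at least 1 in at least 3 libraries. A gene was called when Stage 2 differed in the same direction from both flanks and the weaker of the 2 differences passed a Benjamini-Hochberg adjusted p of 0.05. By that test 348 genes (2.67% of those tested) were higher at Stage 2 than in both flanks, and 1170 (8.97%) were lower. Of the members, 718 above and 2168 below could be tested, which was 5.5% and 16.6% of tested genes. Another 57 and 65 had values too low for the test, and 19 of the tested members above, 9 of the 348 called peaks among them, passed the filter on low values only through Stage 2 libraries, where they are high. Because the test reads the same values as the choice of members, the overlap (345 of 348 and 1164 of 1170 called genes were members) is a description. Where Stage 2 values of a member are said below to lie clear of the flanks, that restates the rule and adds no support. Most differences were moderate: the median of the smaller log2 difference was 0.52 in called peaks and -0.49 in called dips, and 20 peaks and 85 dips reached 2-fold on both sides. At the edge of the rule, LPIN1 was a member with a lowest Stage 2 value of 24.0941 RPKM against a highest flanking value of 24.0848. SCARB1 missed the rule above with a margin of -1.11e-07 on the log2 scale, GCC1 met the rule below with a margin of 3.88e-05, and FAM109B missed it with -1.79e-05.

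The excess of dips depended on how libraries were put on one scale. As deposited, the median tested gene stood 0.05 lower at Stage 2 than at Stage 1 and 0.15 lower than in Stage 3+DMSO on the log2 scale, and 22.9% of all calls were peaks. After median-ratio rescaling, which sets the typical gene equal across libraries, 595 genes (4.56%) were called higher and 676 (5.18%) lower, so that 46.8% of calls were peaks. All 348 peaks and 676 of the 1170 dips called as deposited were also called after that rescaling. Counts for lists are given as deposited unless stated, with counts after median-ratio rescaling or quantile normalization added. The shares of all tested genes to set beside them are 2.67% higher and 8.97% lower as deposited. After median-ratio rescaling they are 4.56% and 5.18%, and after quantile normalization 543 and 666 of 13046 genes. Where 3 sets of values follow each other, they are Stage 1, Stage 2 and Stage 3+DMSO, each with replicates 1 to 3 in order.

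**Figure D1:**
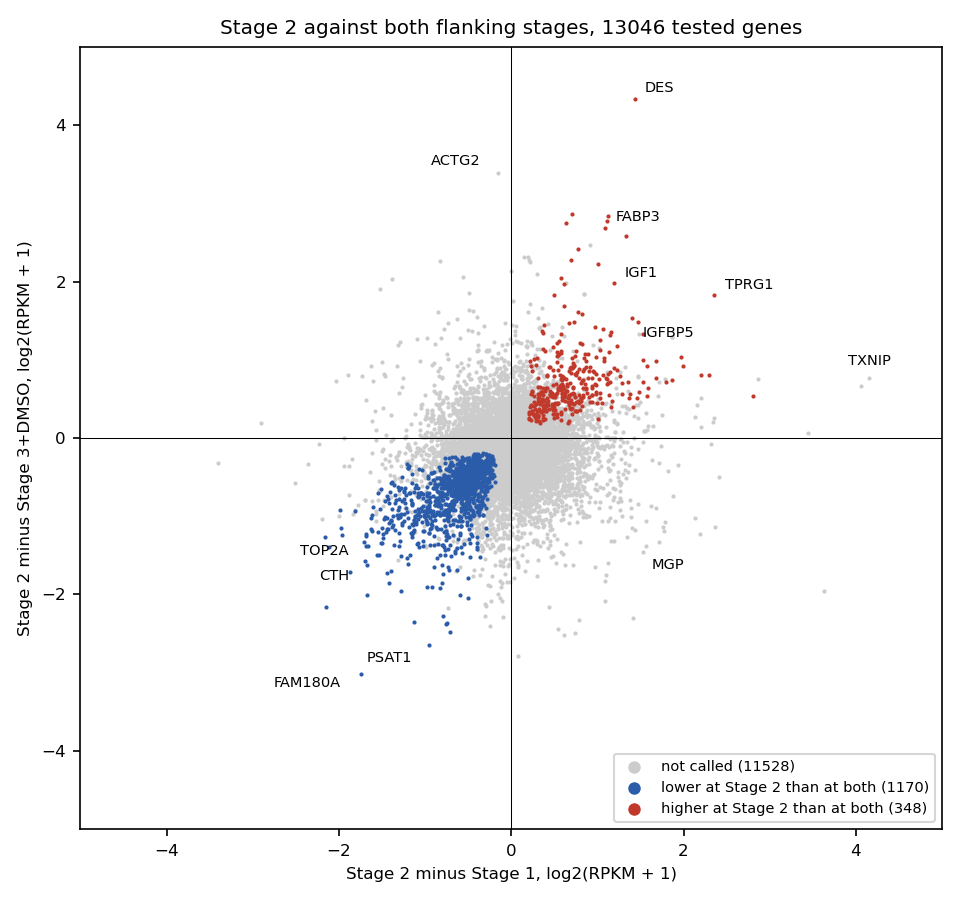
Each point is 1 of 13046 tested genes, with the difference of group means between Stage 2 and Stage 1 on the horizontal axis and between Stage 2 and Stage 3+DMSO on the vertical axis, both in log2(RPKM + 1). The 348 called peaks (red) fill the upper right and the 1170 called dips (blue) the lower left, while genes that moved in 1 direction through the stages, such as MGP, lie in the other corners.

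Secreted growth factors and their binding proteins were among the largest peaks. IGF1, at chromosome 5, 85700101 to 85774105 of the deposited coordinates, read 51.9, 46.9 and 49.9 RPKM in the 3 Stage 1 libraries, 96.7, 118 and 132 at Stage 2 and 29.9, 22.8 and 33.02 in Stage 3+DMSO. Every Stage 2 culture stood above every flanking culture, and the log2 differences were 1.19 (SE 0.13) from Stage 1 and 1.98 (SE 0.13) from Stage 3+DMSO (limma adjusted p = 1.05e-04). IGFBP5, an extracellular IGF-binding protein, read 98.5, 77.1 and 90.3 RPKM at Stage 1, 266, 214 and 228 at Stage 2 and 95.7, 72.98 and 74.6 in Stage 3+DMSO (limma adjusted p = 1.87e-05). Its flanks overlapped each other and neither reached the lowest Stage 2 value. HGF, the ligand of the MET receptor, was less abundant, at 6.20, 4.72 and 6.43 RPKM, then 11.8, 13.7 and 16.2, then 7.22, 5.30 and 5.37 (limma adjusted p = 3.19e-04). Of the 9 tested genes of the IGF system, 3 were called higher (4 after rescaling): IGF1, IGFBP5 and IGFBP7. IGFBP3 was called lower at 0.686 ± 0.218 RPKM (SD, n = 3) against 1.92 ± 0.0862 at Stage 1 and 1.73 ± 0.138 in Stage 3+DMSO, but lost its call in 5 of the 23 alternatives that tested it, including those without Stage 2 replicate 2, Stage 2 replicate 3 or Stage 3+DMSO replicate 3.

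Of 22 tested BMP and TGF-beta genes, 2 were called higher (ID1 and BMP6), 3 were called lower (TGFB2, TGFB3 and INHBA) and 17 were not called. After either rescaling 2 were called higher and 2 lower. ID1, a transcriptional inhibitor induced by BMP signalling, read 114, 90.5 and 116 RPKM at Stage 1, 245, 253 and 253 at Stage 2 and 139, 129 and 139.9 in Stage 3+DMSO (limma adjusted p = 7.68e-05). The Stage 2 values of ID1 spanned a narrow band well above all 6 others. BMP6, a ligand of the family, read 148, 160.4 and 158, then 228, 225 and 219, then 171, 189 and 199 RPKM (limma adjusted p = 0.0142, a call lost without replicate 1 of every group). TGFB3, a TGF-beta ligand, ran the other way, from 163, 171 and 167 RPKM to 98.1, 100.1 and 105 and back to 143, 166 and 128 (limma adjusted p = 0.00139). TGFB2 was also called lower (31.7 ± 2.09 RPKM against 42.7 ± 2.62 and 44.8 ± 2.87, SD, n = 3), with a call lost without replicate 1 of every group, and INHBA, the activin A subunit, was called as deposited but lost its call in 16 of 24 alternatives. Over all tested genes, 2.67% were called higher and 8.97% lower, and a difference between branches of the family was not tested. Among secreted antagonists, TNFRSF11B (osteoprotegerin, a decoy receptor for the bone-resorption signal RANKL) read 50.6, 53.6 and 58.3 RPKM, then 79.9, 93.7 and 98.2, then 37.8, 54.9 and 49.9 (limma adjusted p = 0.00169). An overlapping or adjacent row, CU633166.1, followed nearly the same profile, so reads may be shared between them.

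**Figure D2:**
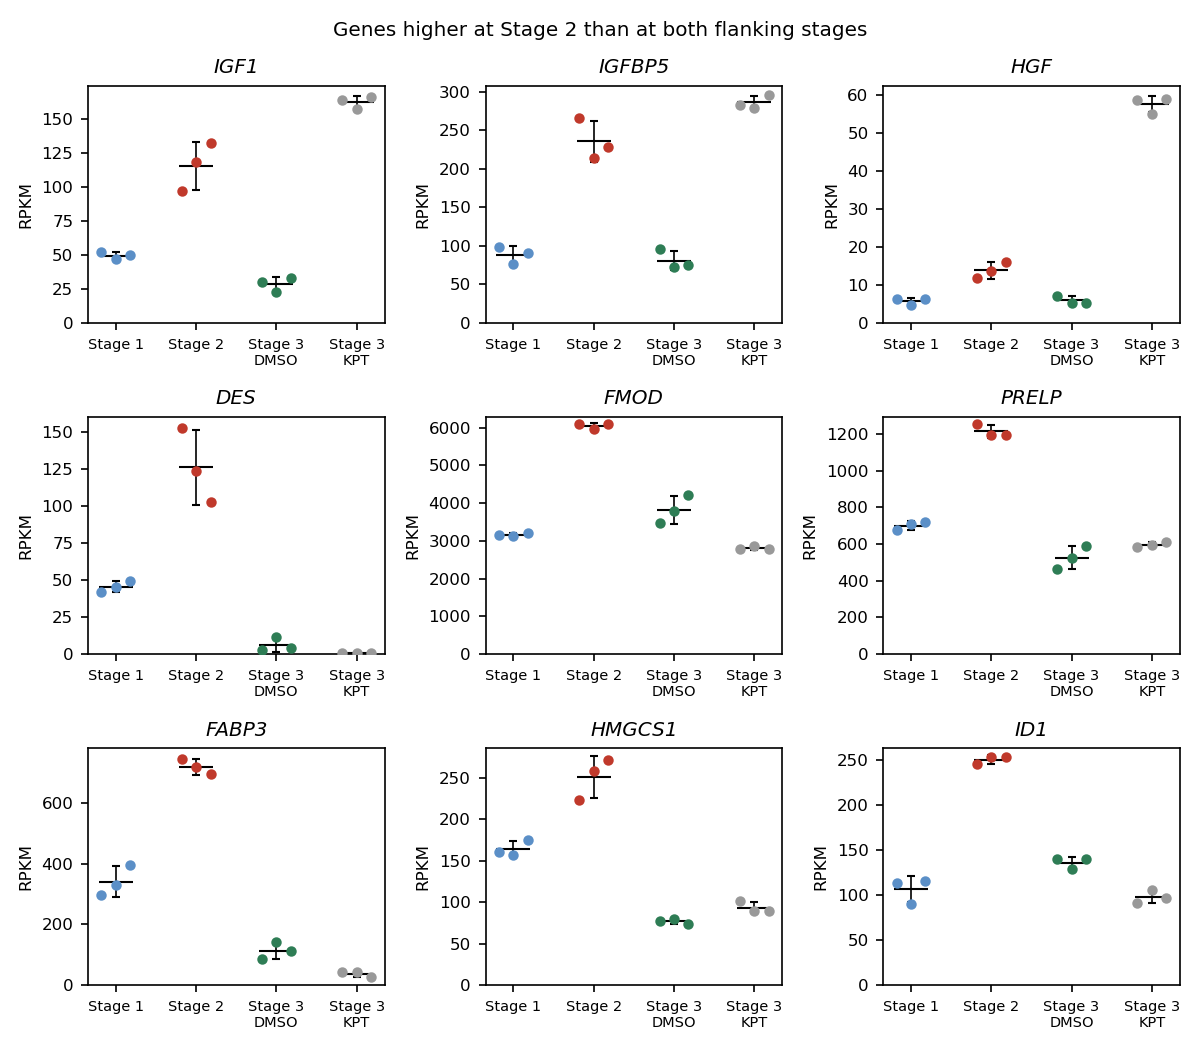
RPKM of 9 called peak genes in every library (points), with the group mean (bar) and SD (whiskers, n = 3), over the 3 stages and the KPT group, each panel on its own linear axis from 0. The red Stage 2 points lie above all blue Stage 1 and green Stage 3+DMSO points in each panel, and the grey KPT points range from above them (HGF, IGF1, IGFBP5) to near 0 (DES).

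FMOD, PRELP, LUM, BGN and DCN, small leucine-rich proteoglycans that bind collagen, were called higher at Stage 2, while OGN, OMD and ASPN of the same family were not called. Of 19 tested proteoglycan and cartilage-type genes, 6 were called higher (7 after rescaling, 4 after quantile normalization) and none lower, the sixth call being VCAN, a large hyaluronan-binding proteoglycan. Fibromodulin (FMOD) read 3159, 3129.7 and 3212 RPKM at Stage 1, 6083, 5971 and 6088 at Stage 2 and 3468, 3781 and 4218 in Stage 3+DMSO (limma adjusted p = 7.97e-05). PRELP read 676, 707 and 721 RPKM, then 1254, 1198 and 1195, then 463, 524 and 591 (limma adjusted p = 4.64e-05). In both genes the groups at Stage 2 were tight and clear of the flanks, and the flanks took opposite orders as deposited: FMOD was higher in Stage 3+DMSO than at Stage 1 and PRELP lower. Lumican (LUM) read 404, 398 and 417 RPKM, then 530, 661 and 742, then 440, 348 and 406, with a wider spread at Stage 2 (limma adjusted p = 0.00227). Decorin (DCN) lost its call after quantile normalization and without Stage 1 replicate 1, Stage 1 replicate 2 or Stage 2 replicate 3. Median log2 differences over the 19 genes were 0.69 from Stage 1 and 0.01 from Stage 3+DMSO, against -0.05 and -0.15 over all tested genes.

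Of 30 tested collagen and elastic fibre genes, 5 were called higher (7 after rescaling, 3 after quantile normalization) and none lower. Among all tested genes, 2.67% were called higher as deposited, 4.56% after median-ratio rescaling and 543 of 13046 after quantile normalization. LOX, the lysyl oxidase that cross-links collagen and elastin, read 339, 336 and 335 RPKM, then 424, 422 and 411, then 284, 252 and 266 (limma adjusted p = 0.00183). Its 3 Stage 2 values were close together and the rise over Stage 1 was small, at 0.32 on the log2 scale. EFEMP2, an elastic fibre assembly protein, was higher by 0.35 and 0.59 on the log2 scale than Stage 1 and Stage 3+DMSO. EFEMP1, a related fibulin, went from 9.71, 8.91 and 9.51 RPKM to 32.2, 27.1 and 27.5 and then to 22.6, 10.9 and 11.01, with Stage 3+DMSO replicate 1 well above the other 2 of its group. That call was lost without Stage 2 replicate 1, Stage 3+DMSO replicate 2 or Stage 3+DMSO replicate 3, and the list's count fell to 3 without any of these libraries. ADAMTS2, which trims the amino end of procollagens, read 40.1, 39.2 and 38.96 RPKM, then 68.1, 70.8 and 71.1, then 43.96, 52.5 and 50.9 (limma adjusted p = 4.43e-04).

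Desmin and the small chaperone that accompanies it peaked together. DES, the muscle intermediate filament, at chromosome 15, 134560460 to 134567338, read 42.2, 45.03 and 49.5 RPKM at Stage 1, 152, 123 and 102 at Stage 2 and 2.62, 11.8 and 4.14 in Stage 3+DMSO (limma adjusted p = 0.0132). The groups did not overlap, and the drop after Stage 2 (log2 difference 4.34) was far larger than the rise before it (1.43). CRYAB, the desmin-binding heat shock protein alpha-B-crystallin, read 631, 649.9 and 685 RPKM, then 1126, 1018 and 996, then 318, 395 and 424 (limma adjusted p = 7.90e-04). The other contractile genes did not share this course: of 17 tested, DES alone was called higher, SRF was called lower with its call lost after either rescaling, and 15 were not called. ACTA2, smooth-muscle actin, read 17824, 18548 and 18957 RPKM at Stage 1, 14092, 12225 and 11716 at Stage 2 and 9892, 8014 and 7806 in Stage 3+DMSO, in descending order through the stages. For the 5 skeletal muscle markers found, a list without DES, the sum also descended through the stages. It ran 277 to 310, 181 to 245 and 110 to 135 RPKM, with MYOG and MYH2 at 0 in all 3. Only 1 of the 5 passed the filter on low values, so the sum rests mainly on 1 gene.

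Lipid, sterol and glycolytic genes gave a small set of peaks, all of them lower in Stage 3+DMSO than at Stage 1 among those named here. FABP3, a fatty acid-binding protein, read 296, 328 and 396 RPKM, then 745, 717 and 694, then 85.1, 141 and 112 (limma adjusted p = 0.00292). HMGCS1, which makes the precursor of the mevalonate pathway, read 160, 157 and 175 RPKM, then 223, 258 and 272, then 77.6, 79.98 and 73.7 (limma adjusted p = 4.40e-04). Both genes ended below their Stage 1 level in every Stage 3+DMSO culture. Of 24 tested cholesterol genes, 3 were called higher (HMGCS1, IDI1 and TM7SF2), against 2.67% of all tested genes, and 21 were not called. IDI1 lost its call without Stage 1 replicate 1 or 2 or Stage 2 replicate 2 or 3, and shares its profile with an unnamed neighbouring row. ALDOC and PGK1 were the glycolytic enzymes called higher, 2 of 19 tested (4 after median-ratio rescaling, 3 after quantile normalization). The share of all tested genes called higher was 2.67% as deposited and 4.56% after median-ratio rescaling. A row named LDHB, the subunit of lactate dehydrogenase that LDHA pairs with, was called lower, at 267, 278 and 290 RPKM against 362, 352 and 375 at Stage 1 and 415, 423 and 347 in Stage 3+DMSO (limma adjusted p = 0.00473), a call kept in all 24 alternatives. Its exon length of 1282 bases equals its whole span (chromosome 2, 12622307 to 12623588), without an intron. Whether its reads come from the LDHB gene itself is therefore uncertain. ALDOC, an aldolase, read 206, 212 and 223 RPKM, then 348, 310.2 and 305, then 72.1, 73.1 and 85.8 (limma adjusted p = 5.71e-04). LDHA, which makes lactate, read 2755, 2655 and 2747 RPKM, then 2819, 2764 and 2843, then 998, 1151 and 1128, and was not called, since its Stage 1 and Stage 2 levels differed by 0.05 on the log2 scale. ACSS2, which makes acetyl-CoA from acetate, read 36.02, 32.5 and 41.1 RPKM, then 54.7, 52.96 and 50.9, then 20.9, 23.01 and 22.6 (limma adjusted p = 0.00280).

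Transcriptional regulators of several lists were also called higher. BTG2, an antiproliferative gene of the immediate early class, read 26.98, 27.1 and 28.7 RPKM, then 41.9, 42.8 and 43.8, then 24.8, 24.04 and 25.5 (limma adjusted p = 7.13e-05). MXI1, which competes with MYC for its partner MAX, read 8.23, 8.14 and 8.63 RPKM, then 12.04, 13.1 and 15.5, then 7.97, 7.79 and 6.98 (limma adjusted p = 0.00179). Both genes had all Stage 2 cultures above 2 flanks that lay close to each other. Of 14 alpha-arrestin and FOXO-type starvation genes tested, 3 were called higher (4 after rescaling), of which ARRDC4 and SESN3 lost their calls in 10 and 13 of 24 alternatives and BCL6 lost its call without Stage 1 replicate 2. TXNIP, the best known alpha-arrestin, read 0.527, 0.756 and 0.638 RPKM, then 18.8, 30.6 and 38.2, then 41.7, 12.7 and 7.47, and was not called (limma adjusted p = 0.397). It was called without Stage 3+DMSO replicate 1, which stood above all 3 Stage 2 cultures. DBP, a clock output gene, read 5.53, 4.38 and 4.14 RPKM, then 12.7, 14.3 and 11.5, then 7.30, 9.25 and 8.54 (limma adjusted p = 0.00797), and NR1D1, a clock repressor, was called with a call lost without Stage 1 replicate 2 or 3 or Stage 2 replicate 2. Of 14 tested clock genes these 2 were called higher, 11 were not called, and NFIL3, a repressor of the same binding sites as DBP, was called lower with a call lost in 15 of 24 alternatives, both rescalings included. The shares over all tested genes were 2.67% higher and 8.97% lower. The sources used here do not give the hour of harvest.

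The largest peaks of all included genes outside these groups. TPRG1 had the largest log2 differences on the weaker side, with 1.35, 0.423 and 0.230 RPKM at Stage 1, 6.47, 6.56 and 8.77 at Stage 2 and 1.56, 1.18 and 1.19 in Stage 3+DMSO (limma adjusted p = 1.52e-04). DTWD1, a transfer RNA-modifying enzyme, read 12.3, 10.6 and 12.4 RPKM, then 22.1, 40.8 and 45.3, then 13.8, 10.6 and 11.03, with replicate 1 much lower than the other Stage 2 cultures yet above every flank (limma adjusted p = 0.00101). ITIH4, an inter-alpha-inhibitor heavy chain, read 33.4, 39.4 and 36.3 RPKM, then 79.7, 78.7 and 88.6, then 32.1, 34.8 and 28.2 (limma adjusted p = 1.22e-04). The remaining genes among the 15 largest were MAP3K7CL, CRABP2, HR, OR51E1, CDK18, GGT5 and GABRE, with Stage 2 means from 1.97 RPKM (GABRE) to 61.9 RPKM (MAP3K7CL). GABRE stood near the RPKM of 1 used in the filter, and may have passed only through Stage 2 libraries, where it is high. CRABP2, a retinoic acid-binding protein, lost its call with a pseudocount of 0.1.

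Most genes of the integrated stress response and amino acid synthesis list dipped. Of its 18 tested genes, 15 were called lower (13 after rescaling and 13 after quantile normalization), 1 higher and 2 not called. CTH, which makes cysteine from cystathionine, read 11.7, 11.8 and 10.6 RPKM at Stage 1, 2.71, 2.95 and 2.76 at Stage 2 and 10.1, 11.5 and 9.44 in Stage 3+DMSO (limma adjusted p = 1.02e-05). All 3 Stage 2 cultures sat far below flanks that overlapped each other. CHAC1, which degrades glutathione, read 64.5, 60.1 and 60.9 RPKM, then 24.1, 18.1 and 15.5, then 83.9, 39.7 and 39.3, with Stage 3+DMSO replicate 1 the highest of all (limma adjusted p = 0.00247). PSAT1, an enzyme of serine synthesis, read 186, 186 and 179 RPKM, then 103, 91.00 and 89.5, then 679, 609 and 511 (limma adjusted p = 6.90e-05). PSAT1 stood above its Stage 1 level in every Stage 3+DMSO culture. PCK2, outside the list, the mitochondrial form of PEP carboxykinase at chromosome 7, 80458471 to 80468943, read 55.3, 65.3 and 62.8 RPKM, then 25.8, 20.1 and 20.1, then 76.4, 75.9 and 72.5 (limma adjusted p = 1.02e-05). ALDH18A1, which starts proline synthesis, was the member called higher, at 129.6 ± 7.75 RPKM against 104 ± 0.812 and 90.5 ± 5.05 (SD, n = 3). SESN2, an ATF4- and p53-linked growth inhibitor, has a near-identical second row, so its value is uncertain.

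The enzymes that load amino acids onto transfer RNAs dipped with them. Of 18 tested cytoplasmic aminoacyl-tRNA synthetases, 11 were called lower (10 after rescaling, 11 after quantile normalization) and none higher. YARS, for tyrosine, read 93.2, 95.5 and 93.2 RPKM, then 58.9, 55.1 and 54.99, then 149, 162 and 147 (limma adjusted p = 2.75e-05). WARS, for tryptophan, read 211, 219 and 211 RPKM, then 154, 138 and 132, then 622, 572 and 517 (limma adjusted p = 3.78e-04). AARS1, for alanine, read 223, 217 and 213 RPKM, then 156, 153 and 149.8, then 544, 536 and 513 (limma adjusted p = 4.40e-05). In each of these genes Stage 2 was lowest and Stage 3+DMSO clearly highest, with no overlap between any of the 3 groups. The unfolded protein response list, a neighbouring stress pathway, had no call by limma or limma-voom in 18 tested genes, with 1 higher and 0 lower at an unadjusted p, and 1 was called higher after median-ratio rescaling.

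**Figure D3:**
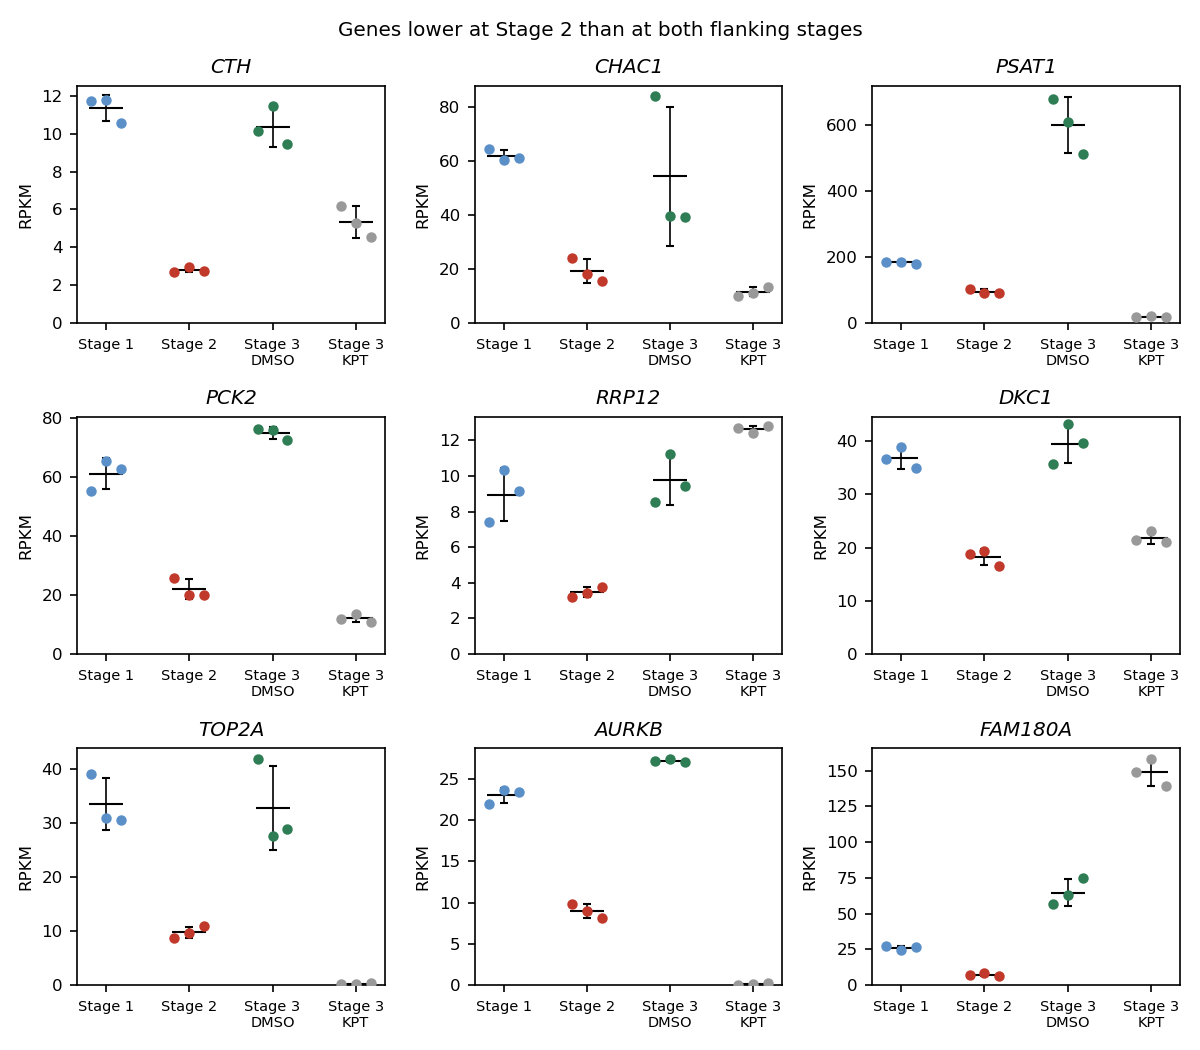
RPKM of 9 called dip genes in every library (points), with the group mean (bar) and SD (whiskers, n = 3), over the 3 stages and the KPT group, each panel on its own linear axis from 0. The red Stage 2 points lie below all blue Stage 1 and green Stage 3+DMSO points, and the grey KPT points range from near 0 (TOP2A, AURKB) to above all others (RRP12, FAM180A).

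Ribosome assembly factors were lower at Stage 2 almost throughout the list. Of 25 tested genes, 21 were called lower as deposited, 13 after median-ratio rescaling and 15 after quantile normalization, and none higher. RRP12, which helps export and mature ribosomal subunits, read 7.39, 10.3 and 9.14 RPKM, then 3.21, 3.43 and 3.76, then 8.56, 11.2 and 9.46 (limma adjusted p = 1.11e-04). RRP9, a protein of the U3 small nucleolar particle, read 22.1, 24.4 and 20.9 RPKM, then 10.2, 9.23 and 9.70, then 21.04, 21.6 and 20.8 (limma adjusted p = 1.71e-05). DKC1, the pseudouridine synthase dyskerin, read 36.7, 38.98 and 34.9 RPKM, then 18.9, 19.4 and 16.5, then 35.8, 43.2 and 39.7 (limma adjusted p = 3.15e-05). The Stage 2 values of these genes did not overlap either flank, whereas the flanks overlapped each other in all 3. MYC, a transcription factor that drives many of these genes, was lower by -1.39 than Stage 1 but by -0.36 than Stage 3+DMSO on the log2 scale, and was not called (limma adjusted p = 0.123). None of 31 cytoplasmic ribosomal protein genes was called by limma or limma-voom, and at an unadjusted p 3 were lower and 0 higher. After quantile normalization 1 was called lower.

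Rows of small nucleolar RNAs, the guides for ribosomal RNA modification, were among the largest dips, though on few reads. Of 181 tested, 13 were called lower (7.18%, against 8.97% over all tested genes) and 0 higher, also at an unadjusted p by limma. With limma-voom on recovered reads, 3 were called lower and 0 higher. SNORD86 had the most reads of them, with 176 over the 3 Stage 1 libraries, 58 at Stage 2 and 194 in Stage 3+DMSO, and read 37.9, 37.2 and 39.3 RPKM, then 13.4, 13.7 and 10.6, then 35.8, 35.2 and 39.95 (limma adjusted p = 7.46e-06). It lies within NOP56, a core nucleolar protein gene at chromosome 17, 37441073 to 37449011, which was itself called lower at 49.5, 44.8 and 47.3 RPKM against 63.8, 62.7 and 59.9 at Stage 1 and 65.9, 74.7 and 79.5 in Stage 3+DMSO. Other tested rows within NOP56 were not called: SNORD110 (21, 19 and 18 reads in the order of the stages), SNORD57 (13, 7 and 21), SNORD56 (7, 0 and 4) and SNORA51 (33, 11 and 29). SNORD41, SNORA17 and SNORD30 had 1, 5 and 3 reads over the 3 Stage 2 libraries, against 17, 32 and 22 at Stage 1 and 22, 33 and 14 in Stage 3+DMSO. At such depth their exact level at Stage 2 is poorly fixed, and SNORD30 was among those not called by limma-voom. A second SNORD41 row went the other way, with 2, 11 and 5 reads in the order of the stages. That row met the rule above and was not called, so the direction of SNORD41 is uncertain. A second SNORA17 row had 71, 27 and 40 reads and was not called. Of the 13, 8 overlapped a protein-coding gene, and 2 of those genes were called lower (NOP56 and RANBP1). The libraries were made with a stranded mRNA kit. Whether reads at these rows came from the guides themselves or from overlapping transcripts was not tested.

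Genes of cell division dipped in the same libraries. Of 24 tested mitosis genes, 20 were called lower (19 after either rescaling), and of 19 S phase genes 12 were called lower (10 after median-ratio rescaling, 8 after quantile normalization, 7 without Stage 1 replicate 1). None of either list was called higher. TOP2A, the topoisomerase that untangles chromosomes, at chromosome 12, 22310214 to 22337485, read 38.97, 30.8 and 30.5 RPKM at Stage 1, 8.73, 9.69 and 10.8 at Stage 2 and 41.7, 27.6 and 28.8 in Stage 3+DMSO (limma adjusted p = 4.40e-05). AURKB, a kinase of chromosome segregation, read 22.02, 23.7 and 23.4 RPKM, then 9.84, 8.93 and 8.10, then 27.2, 27.4 and 27.1 (limma adjusted p = 1.58e-05). UBE2C, which drives exit from mitosis, read 80.03, 85.8 and 81.1 RPKM, then 30.3, 23.7 and 28.9, then 80.3, 59.01 and 57.4 (limma adjusted p = 6.29e-04). The flanks overlapped each other in TOP2A and UBE2C. The proliferation marker MKI67 read 13.9, 12.5 and 10.9 RPKM, then 4.92, 4.29 and 4.09, then 11.1, 9.15 and 8.93 (limma adjusted p = 2.76e-04). In S phase, the transcription factor E2F1 read 21.2, 21.95 and 19.02 RPKM, then 9.54, 10.8 and 9.59, then 15.6, 25.5 and 25.1 (limma adjusted p = 0.00185). CDC45, a helicase subunit at replication forks, read 9.32, 10.1 and 10.9 RPKM, then 3.92, 4.88 and 5.50, then 10.9, 13.4 and 12.8 (limma adjusted p = 4.02e-04). Every Stage 2 culture was again below both flanks in these genes. PCNA, the replication clamp, read 33.6, 35.9 and 40.4 RPKM, then 17.3, 23.4 and 23.3, then 49.7, 60.6 and 67.5 (limma adjusted p = 0.00170), and of the 12 S phase genes called lower it alone was called higher in Stage 3+DMSO than at Stage 1.

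Of 39 tested nuclear transport genes, 14 were called lower as deposited, 8 after median-ratio rescaling and 7 after quantile normalization. None was called higher as deposited or after quantile normalization, and 1 was after median-ratio rescaling. The share of all tested genes called lower was 8.97% as deposited and 5.18% after median-ratio rescaling. IPO4, an importin, read 16.1, 17.4 and 15.7 RPKM, then 8.60, 7.22 and 6.74, then 13.1, 16.3 and 16.6 (limma adjusted p = 2.94e-04). RANGAP1, which switches off the transport GTPase RAN, read 15.99, 16.7 and 15.2 RPKM, then 7.50, 8.41 and 6.97, then 15.2, 13.9 and 16.4 (limma adjusted p = 9.90e-04). Both genes had overlapping flanks and a separate, lower Stage 2 group. XPO1, the main protein export receptor, read 30.7, 33.8 and 34.5 RPKM, then 19.6, 29.6 and 31.2, then 26.7, 22.4 and 21.8, and its Stage 2 mean lay between the flanks as deposited.

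The largest single dips outside these lists were varied. FAM180A read 26.98, 24.4 and 26.4 RPKM, then 6.70, 8.24 and 6.30, then 56.5, 62.6 and 74.9 (limma adjusted p = 5.58e-06). ADAMTS1, a protease of versican and aggrecan, read 11.99, 16.5 and 12.5 RPKM, then 3.95, 3.48 and 3.16, then 11.9, 10.4 and 9.92 (limma adjusted p = 2.10e-05), and a second row of the same name followed it closely, so the level of either is uncertain. MYOM1, a protein of the muscle M band, read 7.66, 8.77 and 8.46 RPKM, then 2.06, 2.84 and 2.61, then 6.09, 14.4 and 17.4 (limma adjusted p = 0.00415). These genes dipped in every Stage 2 culture, with the widest scatter in Stage 3+DMSO for MYOM1. STC2, a secreted glycoprotein, read 32.5, 32.5 and 31.9 RPKM, then 17.1, 15.6 and 13.8, then 40.7, 35.9 and 33.1 (limma adjusted p = 3.15e-05), whereas the other 3 called genes of the 27 tested in the hypoxia list (MXI1, NDUFA4L2 and BNIP3L) were higher, with 5 higher after median-ratio rescaling. The share of all tested genes called higher was 2.67% as deposited and 4.56% after that rescaling. NDUFA4L2 has a near copy in the table. It lost its call without Stage 1 replicate 1, Stage 2 replicate 1 or Stage 2 replicate 3. BNIP3L lost its call without Stage 2 replicate 2, Stage 2 replicate 3, Stage 3+DMSO replicate 2 or Stage 3+DMSO replicate 3. Of the mitochondrial genome, CYTB alone was called, 1 of 13, at 412, 487 and 535 RPKM against 813, 873 and 837 at Stage 1 and 746, 665 and 683 in Stage 3+DMSO (limma adjusted p = 0.00275). MT1X and CH242-113D13.1, also among the 15 largest dips, carry names that differ between tables, and their values are left out for that reason.

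**Figure D4:**
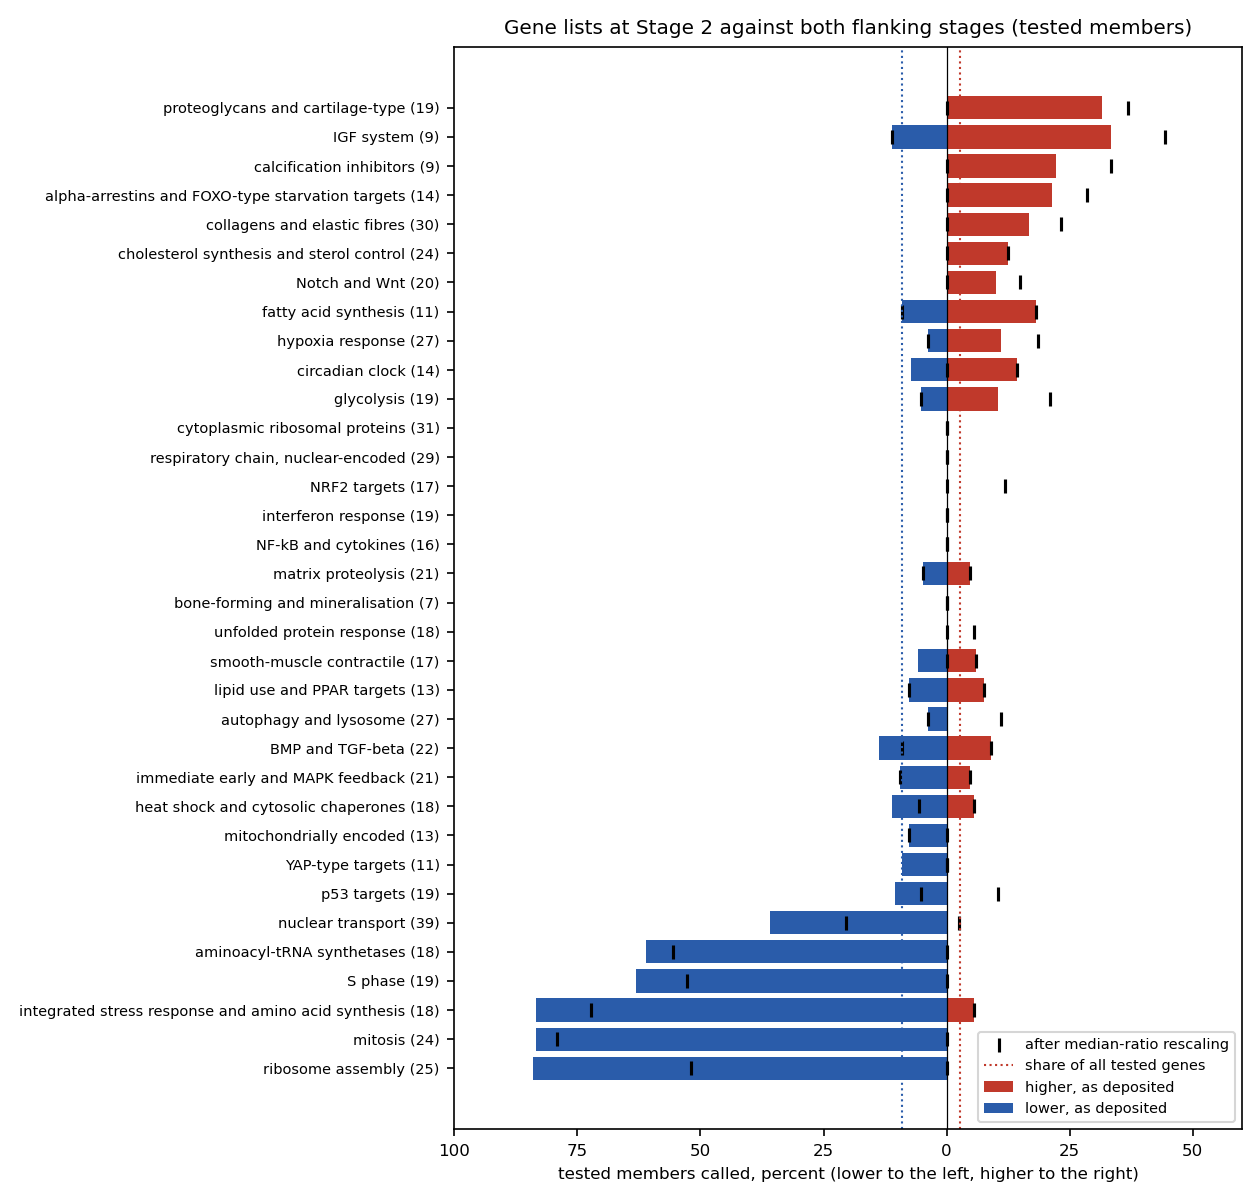
For each gene list (tested members in parentheses), bars give the percent of tested members called lower (blue, left) and higher (red, right) at Stage 2 than in both flanks, black ticks the same after median-ratio rescaling, and dotted lines the share of all tested genes (2.67% higher, 8.97% lower). The 6 lists at the bottom, from nuclear transport to ribosome assembly, had the largest shares called lower, and the proteoglycan and IGF lists the largest shares called higher.

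Several groups tied to bone formation, inflammation and oxidative stress had no call as deposited. None of 7 tested bone-forming genes, 16 NF-kB and cytokine genes, 19 interferon genes, 17 NRF2 targets or 29 nuclear respiratory chain genes was called in either direction as deposited, by limma or limma-voom. At an unadjusted p the first 3 lists also had 0, the NRF2 list had 2 higher and 1 lower, and the respiratory chain list 1 lower. The NRF2 list had 2 genes called higher after median-ratio rescaling and 1 after quantile normalization, and the other 4 lists had 0 under both. A separate list of calcification inhibitors did hold calls. Of its 9 tested genes, 2 were called higher (3 after median-ratio rescaling, 2 after quantile normalization) and 0 lower, against 2.67% and 8.97% of all tested genes. RUNX2, a master regulator of bone formation with 2 rows in the table, read at the row of higher level 19.8, 20.6 and 21.04 RPKM, then 14.4, 14.6 and 14.2, then 9.38, 7.57 and 9.70, descending through the stages. MGP, an inhibitor of calcification, read 515, 559 and 571 RPKM, then 1552, 1555 and 1658, then 3839.8, 4903 and 4392, ascending. Genes such as these moved in 1 direction with time and lie outside the rule. SPP1 (osteopontin) read 15.3, 17.6 and 20.7 RPKM, then 15.7, 16.4 and 15.4, then 10.1, 30.5 and 35.8, and its groups overlapped.

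The later flank did not always match the earlier one. Differences between lists in this respect were not tested. Stage 3+DMSO was compared with Stage 1 in the same limma fit, in which 3975 tested genes (30.5%) were higher and 2251 (17.3%) lower in Stage 3+DMSO. Among the 348 called peaks, 73 were higher, 75 lower and 200 not called, and among the 1170 called dips 218, 142 and 810. These counts moved by more than 1.5 times when single libraries were left out: dips higher in Stage 3+DMSO fell to 130, 125 and 116 without Stage 1 replicate 1, 2 or 3, and dips lower to 85, 87 and 91 without those and to 78 without Stage 3+DMSO replicate 2 or 3. Peaks higher fell to 46 without Stage 3+DMSO replicate 2, and peaks lower to 42 and 40 without Stage 1 replicate 1 or 2. Of the 15 stress response and amino acid genes that dipped, 11 were higher in Stage 3+DMSO than at Stage 1, 4 were not called and none was lower (9, 3 and 1 of 13 after median-ratio rescaling). The synthetases gave 9 higher and 2 not called of 11 (7, 2 and 1 lower of 10 after rescaling). Mitosis genes gave 0 higher, 9 lower and 11 not called of 20 (0, 12 and 7 of 19 after rescaling).

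For individual genes the size of the difference between the flanks is known with an interval from the same fit. TOP2A differed by -0.05 (95% interval -0.38 to 0.28), CTH by -0.13 (95% interval -0.37 to 0.12) and DKC1 by 0.10 (95% interval -0.09 to 0.29) on the log2 scale, and each interval includes 0. PSAT1 was higher in Stage 3+DMSO by 1.69 (95% interval 1.49 to 1.90), WARS by 1.41 (95% interval 1.24 to 1.57) and FAM180A by 1.28 (95% interval 1.04 to 1.51). Of the peaks, IGFBP5 differed by -0.13 (95% interval -0.38 to 0.12) and HGF by 0.04 (95% interval -0.26 to 0.34), while FABP3 was lower by Stage 3+DMSO with a difference of -1.60 (95% interval -2.03 to -1.18). These comparisons share the Stage 1 and Stage 3+DMSO libraries with the choice of members.

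**Figure D5:**
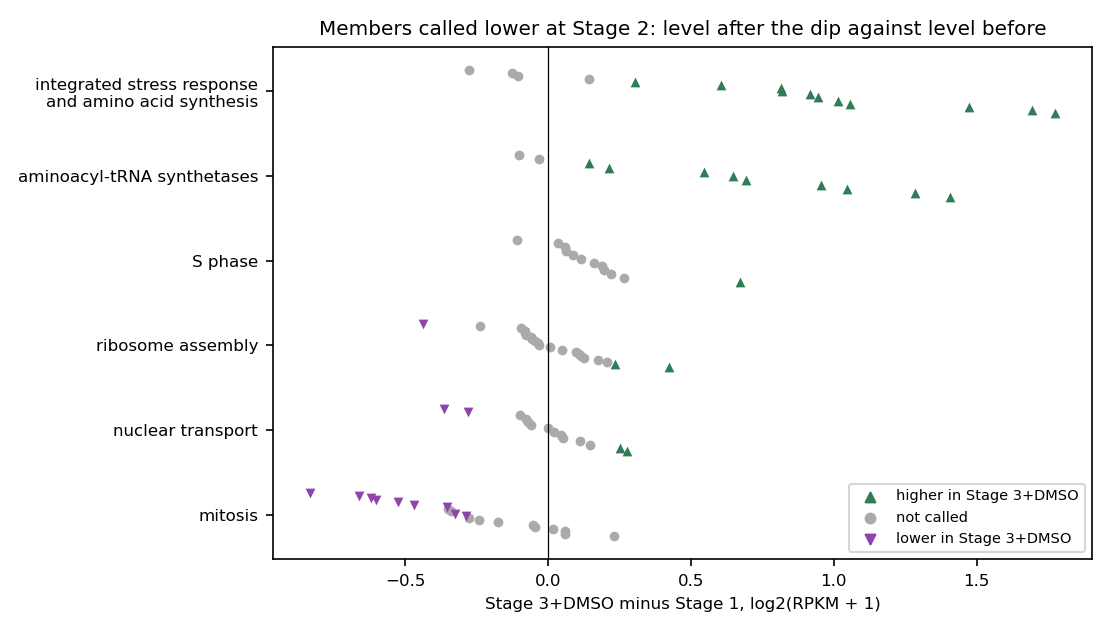
Each symbol is a gene called lower at Stage 2, in 6 lists, placed by the log2(RPKM + 1) difference of group means between Stage 3+DMSO and Stage 1. Triangles pointing up (green) were called higher in Stage 3+DMSO, triangles pointing down (purple) lower, and circles were not called: 11 of 15 stress response genes and 9 of 11 synthetases lie to the right, and 9 of 20 mitosis genes were called lower on the left.

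The KPT group, which the rule did not use, was set beside Stage 3+DMSO for the called genes. Its libraries did enter the fit and the filter behind those calls. A fit to the 9 untreated libraries alone called 309 peaks and 1023 dips. All 3 KPT values lay below all 3 Stage 3+DMSO values in 147 of 348 called peaks (42.2%) and 548 of 1170 called dips (46.8%), against 31.5% of all tested genes. They lay all above in 116 peaks (33.3%) and 330 dips (28.2%), against 33.7%. The growth factor peaks were higher with KPT: KPT cultures read 164, 157 and 166 RPKM for IGF1, 283, 279 and 296 for IGFBP5 and 58.6, 55.2 and 58.9 for HGF. Each of those sets stood above the Stage 2 values as well as above Stage 3+DMSO. DES, by contrast, read 0.467, 0.491 and 0.405 RPKM, FABP3 42.8, 43.2 and 26.1 and TNFRSF11B 11.5, 11.2 and 11.7, below every untreated culture. Among the dips, TOP2A read 0.137, 0.229 and 0.311 RPKM and AURKB 0, 0.0754 and 0.237, far below Stage 2, and PSAT1 read 17.5, 19.98 and 18.7. RRP12 read 12.7, 12.4 and 12.8, FAM180A 149, 158 and 139 and PCNA 129, 127 and 124 RPKM, above every untreated culture. These values share Stage 3+DMSO as control with the choice of members.

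As a sign of RNA quality, the ratio of last to first exon was compared over the same libraries. The median log2 ratio was 0.276 ± 0.0106 at Stage 1, 0.229 ± 0.0324 at Stage 2 and 0.213 ± 0.0148 in Stage 3+DMSO (SD, n = 3). Stage 2 differed from the 6 flanking libraries by -0.0158 (exact permutation test, two-sided, p = 0.5), and its mean lay between the flanks. Every Stage 1 library (0.264 to 0.283) stood above every Stage 3+DMSO library (0.201 to 0.230). The test against pooled flanks therefore says little about either flank alone. A difference from Stage 1 alone was not tested.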

How the data were processed

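Members and gene lists were chosen with earlier results of these data known. The authors deposited RPKM values per gene and exon for 12 libraries. The submitters' processing notes name TopHat2 2.1.0 as a tool; the sources used here name no counting tool, genome build or annotation. Per the labels' protocols, libraries were made from total RNA with a stranded mRNA kit. All values came out as whole reads within 0.0001 once a library total was recovered (13188023 to 24724019), and the reads over genes were 1.751 to 1.813 times those totals. Symbols came from the deposited table (15203), the ID table (1715) or the Entrez number (627).

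From the RPKM, log2(RPKM + 1) was fitted with limma 3.58.1 (R 4.3.3, trend, 1 coefficient per group, all 12 libraries, no replicate block), keeping 13046 genes with RPKM of at least 1 in at least 3 libraries. The p of a gene was the larger of its 2 two-sided p-values where both differences had 1 sign and otherwise 1, adjusted by Benjamini-Hochberg over all tested genes. The log scale understates changes of low genes. Genes named are the 15 largest called members per direction, up to 3 called members per list and direction and a panel of 20 genes. NOP56 and RANBP1 were added after their values were seen. The code was tested on simulated data. Alternatives were other pseudocounts (0.1, 0.5) and filters, median-ratio and quantile scaling, library weights, limma-voom on recovered reads, the replicate block and leaving out each library. Neighbouring rows of near-parallel profile (correlation over 0.97) were found for PCNA, PGK1, BMP6, IDI1, EFEMP2, CPT1A and TNFRSF11B, where reads may be shared.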

Additional observations from a re-analysis of the deposited data

How the results depend on the processing

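Counts of calls moved with scale, with weighting and with the contrast used. Median-ratio rescaling gave 595 higher and 676 lower genes, quantile normalization 543 and 666, library quality weights 690 and 1929, and a single contrast with the mean of the flanks 666 and 2080, against 348 and 1170 as reported. Genes with all 3 Stage 2 values beyond the flanks numbered 1349 above and 1373 below after median-ratio rescaling, 1329 and 1330 after quantile normalization, and 1913 and 3539 without replicate 1 of every group, an alternative chosen after seeing the data. Leaving out 1 library gave 246 to 388 higher and 861 to 1232 lower calls, and 839 to 1350 genes above (1350 without Stage 2 replicate 1) and 2379 to 2809 below, fewer libraries making the rule easier to meet. Peaks that were higher in Stage 3+DMSO than at Stage 1 numbered 146 with weights and 46 to 85 with 1 library left out, and those lower 139 (median-ratio), 125 (quantile), 155 (weights) and 40 to 89. Dips that were higher there numbered 109, 106 and 494 under the same settings and 116 to 277 with 1 library left out, and those lower 276 with weights and 78 to 160. Among lists, ribosome assembly had 13 lower after median-ratio rescaling (16 to 21 with 1 library left out), nuclear transport 8 and 7 after the 2 rescalings (11 to 13), collagens and elastic fibres 3 higher after quantile normalization and 8 with weights (3 to 7), and S phase 7 to 12 lower with 1 library left out. The cause of these moves was not tested. Of 102 named genes that were called, 72 kept the call in every alternative that tested them (23 for GABRE and GGT5, otherwise 24) and 30 lost it in at least 1, and no named gene changed direction. Same-numbered replicates of the 3 stages did not deviate together over all tested genes (correlations of -0.0713 to 0.0574). That cannot exclude a shared origin that touches few genes, so whether the numbers pair the samples stays unknown. With the replicate block, 302 genes were higher and 1042 lower. Each group has 3 libraries, and genes with few reads, such as the small nucleolar RNAs, are limited by depth.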

Other observations

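Several called genes belong to lists in which most members were not called. KLF6, an immediate early transcription factor, read 167, 187 and 177 RPKM at Stage 1, 72.9, 85.6 and 79.3 at Stage 2 and 94.4, 121 and 113 in Stage 3+DMSO (limma adjusted p = 0.00433), while 18 of 21 genes of its list were not called. DNAJB4, a cytosolic co-chaperone, was lower at 71.98, 94.2 and 91.2 RPKM against 121, 123 and 124 at Stage 1 and 115, 123 and 121 in Stage 3+DMSO, and 15 of 18 heat shock and chaperone genes were not called. Of that list 2 genes were called lower as deposited, 1 after median-ratio rescaling and 4 after quantile normalization. ATP6V1H, a subunit of the lysosomal proton pump, was the single call as deposited in 27 autophagy and lysosome genes (3 others were called higher after median-ratio rescaling and 1 after quantile normalization), at 50.9, 52.7 and 52.01 RPKM against 65.4, 61.8 and 63.2 at Stage 1 and 62.9, 71.4 and 72.9 in Stage 3+DMSO. In each of these genes every Stage 2 culture lay below every flanking culture.

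Fatty acid genes gave calls in both directions. ACSL1, a long-chain acyl-CoA synthetase, read 16.2, 18.2 and 16.8 RPKM, then 11.3, 10.8 and 11.3, then 20.8, 22.7 and 22.1 (limma adjusted p = 5.89e-04). CPT1A, which carries fatty acids into mitochondria, read 19.97, 22.3 and 20.6 RPKM, then 13.8, 14.4 and 14.99, then 21.3, 27.6 and 27.3 (limma adjusted p = 0.00473), and a neighbouring unnamed row followed nearly the same profile. Both genes were lowest at Stage 2, whereas ACSS2 and SCD were called higher, the latter with a call lost in 13 of 24 alternatives. GGCX, the vitamin K-dependent carboxylase that activates MGP, read 60.01, 51.6 and 53.7 RPKM, then 73.7, 68.2 and 68.6, then 51.5, 42.1 and 45.6 (limma adjusted p = 0.0121), a call lost without Stage 1 replicate 2. FRZB, a secreted Wnt antagonist, read 0.631, 0.557 and 0.562 RPKM, then 2.08, 2.70 and 1.86, then 1.44, 0.678 and 0.667 (limma adjusted p = 0.0123). Its call was lost without Stage 2 replicate 2, Stage 3+DMSO replicate 2 or Stage 3+DMSO replicate 3. Most of its flanking values lay below the RPKM of 1 used in the filter, so it may have passed only through Stage 2 libraries.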
